A study of Mus musculus with 8 samples.

Results

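The genes described here encode the enzyme complexes of oxidative phosphorylation. They were chosen by name from the 21959 genes of the deposited table: the Ndufa, Ndufb, Ndufc, Ndufs and Ndufv genes of complex I, Sdha to Sdhd of complex II, the Uqcr genes of complex III, Cox4 to Cox8 of complex IV, Atp5 of ATP synthase (complex V), and the mt-Nd, mt-Cytb, mt-Co and mt-Atp genes. This gave 100 genes, of which 87 are nuclear and 13 are encoded by mitochondrial DNA. Expression had been measured by sequencing polyadenylated RNA of wild-type mouse brain in 8 libraries. The 4 IsoL libraries are labelled as treated with isoliensinine, a plant alkaloid, and the 4 Model libraries as treated with PCPA (para-chlorophenylalanine, which blocks tryptophan hydroxylase and so serotonin synthesis). Per the design text, the mice were female ICR, dosing lasted 7 days, pentobarbital followed 40 minutes after the last dose, and the hypothalamus was dissected, as part of work on sedative and hypnotic effects. The labels do not say whether IsoL mice also received PCPA, which dose was sequenced, or whether each library is a different mouse, so the p-values cover only library-to-library spread, possibly technical. An untreated group was not analysed here, and every direction is that of IsoL relative to Model.

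Oxidative phosphorylation is the main source of ATP in neurons. Complexes I and II pass electrons from NADH and succinate to ubiquinone, complex III hands them on to cytochrome c, and complex IV reduces oxygen. Complexes I, III and IV pump protons, and ATP synthase uses the resulting gradient to make ATP. Mitochondrial DNA encodes hydrophobic core subunits of complexes I, III, IV and V, is transcribed as long polycistronic RNAs from both strands and is cut at transfer RNAs, whereas complex II is wholly nuclear. The complexes therefore need transcripts from both genomes.

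Summed counts were 15731923 to 21620466 in the IsoL libraries and 14262836 to 15886850 in the Model libraries, so that 3 counts amounted to 0.139 to 0.210 CPM (counts scaled by library size). Summed markers of hypothalamus, named in the design text, and of astrocytes separated the groups. Those of neurons, oligodendrocytes, microglia, endothelium, ependyma and blood overlapped between the groups, as did those of choroid plexus and of cortex and hippocampus. The summed CPM of 17 hypothalamic genes was 123 to 230 in IsoL and 260 to 322 in Model libraries, and that of 8 astrocyte genes was 3903 to 3965 in IsoL and 3261 to 3741 in Model. Choroid plexus genes summed to 780 and 681 CPM in IsoL 1 and IsoL 2, against 72.0 to 124 CPM in the other 6 libraries, and cortical and hippocampal genes to 347 and 328 CPM in the same libraries, against 177 to 221 CPM. All 8 libraries held reads of Y-linked genes (4 genes, summed CPM 301 to 354), against the stated sex. The part of tissue composition in the values below was not tested, and in bulk tissue fewer cells of a type and less RNA per cell cannot be told apart.

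The mitochondrially encoded genes fell into separate ranges of level, and their sequences matter for reading those levels. Mouse chromosome 1 carries a stretch of mitochondrial DNA whose annotated pseudogenes in GRCm38 (GENCODE M21) lie between chr1:24611535 and chr1:24616197. Of the 13 genes, 5 (mt-Co2, mt-Co3, mt-Atp6, mt-Nd3 and mt-Nd4l) have a copy there over almost their whole length at 99.71 to 100% identity. A read that lies within identical sequence cannot be assigned to the gene or its copy. The first 80 bases of mt-Nd3, which encodes a complex I subunit, and of its copy Gm28438 (chr1:24612775-24613119, minus strand) show this, with the sole mismatch of the aligned 345 bases in capitals (T3C, counted from the first base of mt-Nd3). For contrast, bases 300 to 379 of mt-Cytb, the only mitochondrially encoded subunit of complex III, are shown beside its copy Gm11410 on chromosome 4 (chr4:80003989-80005131, plus strand), which is 92.9% identical and differs at 8 places in this window, again in capitals.
mt-Nd3: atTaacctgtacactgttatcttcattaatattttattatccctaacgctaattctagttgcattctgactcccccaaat
Gm28438: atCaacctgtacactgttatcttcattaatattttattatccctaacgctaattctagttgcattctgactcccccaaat
mt-Cytb: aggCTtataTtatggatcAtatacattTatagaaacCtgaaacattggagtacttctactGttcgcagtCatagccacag
Gm11410: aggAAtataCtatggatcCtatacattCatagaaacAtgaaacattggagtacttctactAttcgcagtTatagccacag

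The genes with a whole, near-identical copy were listed at low levels. In deposited FPKM (counts scaled by gene length and library size), averaged over the 8 libraries, mt-Co1 stood at 12919, mt-Nd1 at 7344, mt-Cytb at 7131, mt-Nd2 at 4783, mt-Nd4 at 2997, mt-Nd5 at 2604 and mt-Nd6 at 1400. The 5 genes with a whole copy stood at 218 (mt-Co2), 145 (mt-Co3), 91.3 (mt-Atp6), 24.4 (mt-Nd3) and 8.60 FPKM (mt-Nd4l). The lowest gene of the first set was thus 6.41 times the highest of the second, and mt-Co1 was 59.1 times mt-Co2, although both encode catalytic core subunits of complex IV. Partial copies at this identity cover 63.6% of mt-Nd4 and 31.3% of mt-Co1, both of high level. mt-Atp8 is in neither set and is left out of the 6.41-fold comparison. No annotated copy at 98% identity was found for it, yet at 0.687 FPKM it stood below every gene of both sets. Only annotated transcripts were searched, so an unannotated copy of mt-Atp8 would not have been found. In mitochondrial DNA mt-Atp8 starts between mt-Co2 and mt-Atp6, which both have a whole copy on the same stretch of chromosome 1. mt-Atp8 had 1 to 5 counts in each library and overlaps mt-Atp6 by 43 bases. The handling of reads with several matching places is not stated, and its part in these levels was not tested.

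**Figure D1:**
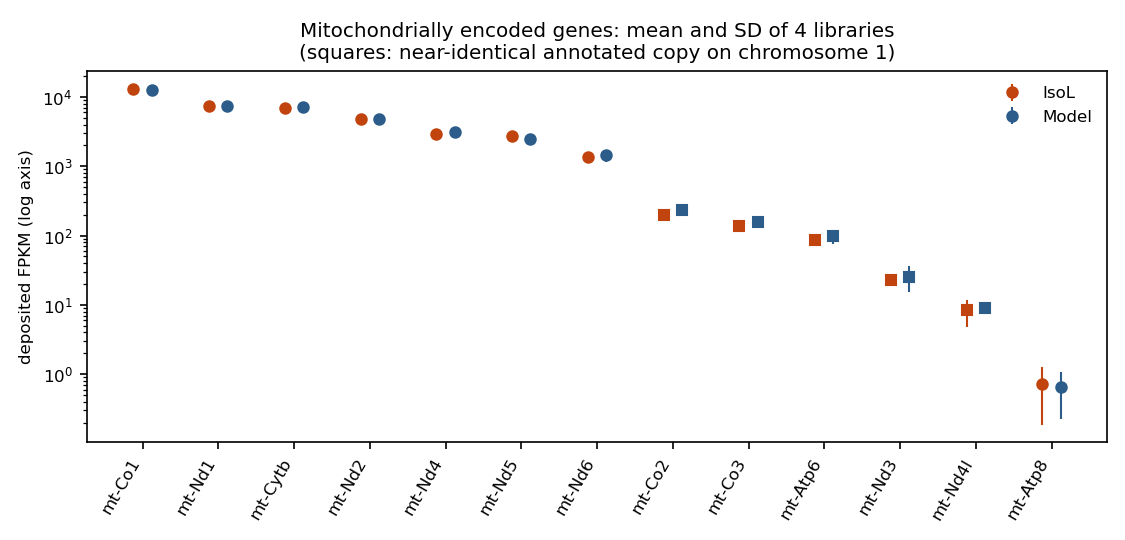
Deposited FPKM (log axis) of the 13 mitochondrially encoded genes, as mean and SD of the 4 IsoL and the 4 Model libraries; squares mark the 5 genes with a near-identical, nearly whole copy on chromosome 1. Among genes other than mt-Atp8, all squares lie below all circles, and IsoL and Model lie close together for each gene.

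No oxidative phosphorylation gene passed the test for a difference between IsoL and Model. Of the 100 genes, 94 passed the filter on low counts (82 nuclear and 12 mitochondrial), and none passed an adjusted p of 0.05 in edgeR's quasi-likelihood test, where 0.275% of all 14536 genes tested did (17 higher, or 0.117%, and 23 lower, or 0.158%). The smallest edgeR adjusted p among them was 0.262, for Ndufb5. At an unadjusted p under 0.05 there were 8 of 94 (8.51%), against 13.2% of all genes, and DESeq2 and limma voom also called none of the 94, against 2.14% and 1.64% of all genes. The libraries of the groups did not overlap for 3 of the 94 (3.19%; background 8.48%), with Uqcrc2 higher and Ndufb5 and Uqcr10 lower in IsoL.

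The 95% interval of the fold change lay wholly within 1.25-fold in either direction for 69 of 94 genes (73.4%), among them 63 of 82 nuclear and 6 of 12 mitochondrial genes, against 55.5% of all genes tested. The members were also more abundant than the genes tested as a whole, with a median of 65.1 CPM against 26.3 CPM, and their median biological coefficient of variation was 7.16% against 8.45%. The median log2 fold change was 0.004 for nuclear genes, with 42 of 82 above 0, and -0.083 for mitochondrial genes, with 2 of 12 above 0, against -0.001 for all genes. The mitochondrial median turned to 0.037 without the library Model 2 and to 0.029 in limma voom with quality weights, so its direction depended on that library and on the test.

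**Figure D2:**
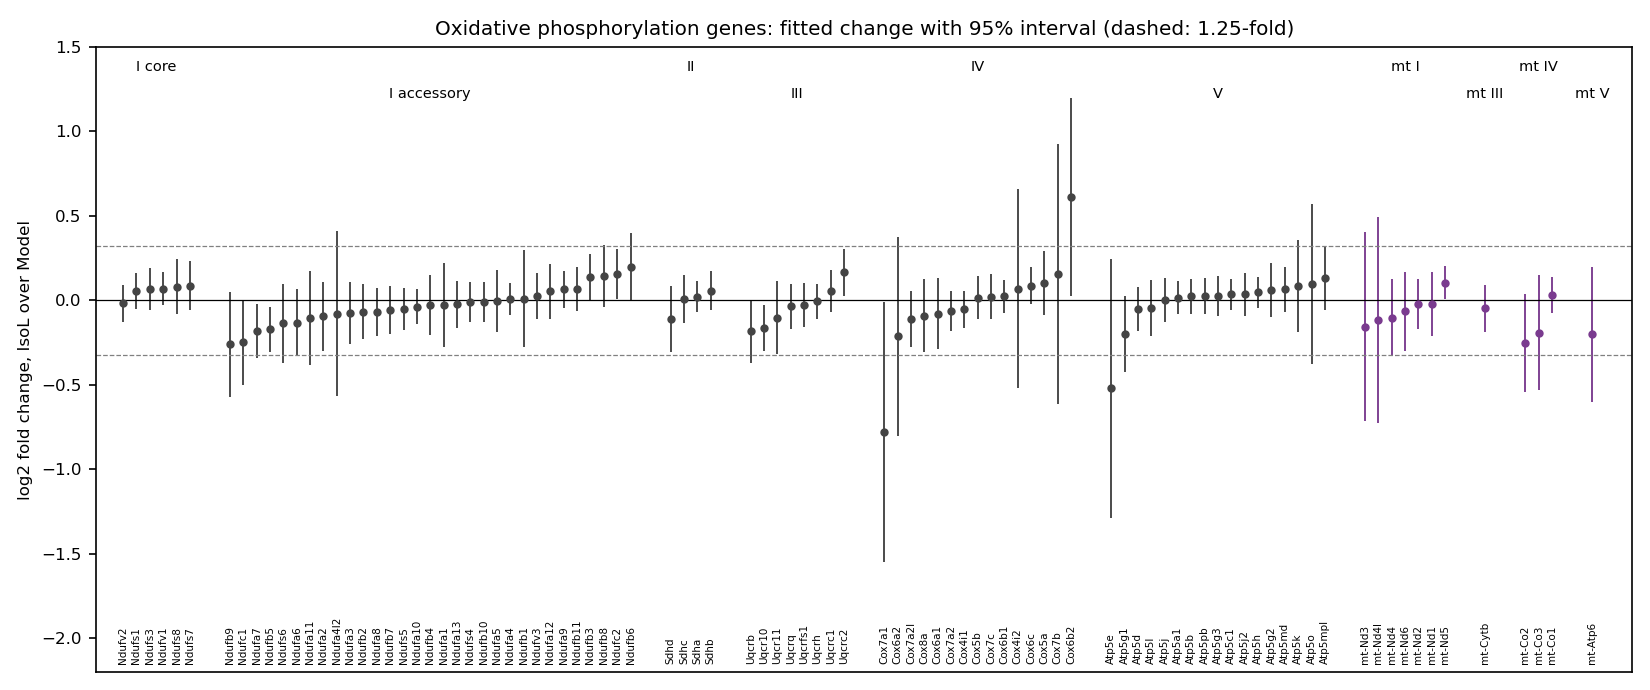
Fitted log2 fold change of IsoL over Model for the tested genes reported here, sorted within each complex (points; bars are 95% intervals from edgeR; dashed lines mark 1.25-fold in either direction; mitochondrially encoded genes in purple). Most points lie near 0, and long bars are seen for genes of low level such as Cox7a1, Cox6b2, mt-Nd4l and mt-Nd3, and for Cox7b and Atp5e.

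Complex I is the largest of the complexes, with a core that holds the flavin and iron-sulfur clusters and a shell of accessory subunits needed for assembly and stability. All 7 nuclear core genes had intervals within 1.25-fold, and their log2 fold changes ran from -0.02 (Ndufv2) to 0.09 (Ndufs7). Ndufv1, which encodes the subunit that binds NADH and flavin, had the smallest p among the core genes and averaged 119 ± 2.19 CPM in IsoL and 114 ± 4.76 CPM in Model (SD, n = 4 each; log2 fold change 0.07, SE 0.05, edgeR adjusted p = 0.555).

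Among the 31 accessory genes tested, 10 had fitted changes above 0 and 21 below, and 22 lay within 1.25-fold. The grouping here and in the figure goes by gene name, so it includes Ndufa4 and Ndufa4l2, which are described with complex IV below. Ndufb5, an accessory subunit of the membrane arm (chromosome 3, 32791139 to 32805715 in the deposited table, of unstated build), had 53.2, 57.2, 52.8 and 53.9 CPM in IsoL libraries and 59.6, 68.3, 57.4 and 59.2 CPM in Model libraries. The groups did not touch, but the gap between 57.2 in IsoL 2 and 57.4 in Model 3 was small and Model 2 was far above the rest. The log2 fold change was -0.17 (SE 0.06, edgeR adjusted p = 0.262). Without Model 2 it was -0.11. Ndufc2, another membrane-arm subunit, had 58.5, 62.1, 52.5 and 57.6 CPM in IsoL and 57.4, 47.7, 51.1 and 51.0 CPM in Model, and the log2 fold change was 0.16 (SE 0.07; edgeR adjusted p = 0.345). Here the groups overlapped. Ndufa8 had the highest FPKM of the accessory genes (86.8) and averaged 73.1 ± 3.50 CPM in IsoL and 76.5 ± 7.04 CPM in Model (SD, n = 4 each).

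The mitochondrial complex I genes encode the proton-pumping membrane core. mt-Nd5, one of its antiporter-like subunits, had 4977, 4961, 4937 and 4836 CPM in IsoL libraries and 4837, 4511, 4497 and 4473 CPM in Model libraries. Model 1 reached the lowest IsoL library, and the other Model libraries lay below all IsoL libraries. Its log2 fold change of 0.11 (SE 0.04) did not pass in edgeR (adjusted p = 0.320), in DESeq2 (0.0922) or in limma voom (0.0702). The other 6 had log2 fold changes from -0.16 (mt-Nd3) to -0.02 (mt-Nd1), with edgeR adjusted p from 0.713 (mt-Nd4) to 0.946 (mt-Nd1). Without Model 2, mt-Nd1, mt-Nd2, mt-Nd3, mt-Nd4 and mt-Nd6 turned to values from 0.02 (mt-Nd4) to 0.16 (mt-Nd3). mt-Nd4, also antiporter-like, had 4064, 4119, 3907 and 3857 CPM in IsoL and 4247, 5330, 3696 and 3837 CPM in Model. Model 2 alone was high for this gene, and the remaining libraries of both groups were interleaved. mt-Nd5 and mt-Nd6 lie on opposite strands and overlap by 14 bases, and no strand marking is stated.

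Complex II, succinate dehydrogenase, also works in the tricarboxylic acid cycle. Sdha, its flavoprotein, had 457, 457, 471 and 466 CPM in IsoL and 476, 436, 451 and 458 CPM in Model, and the log2 fold change was 0.02 (SE 0.04; edgeR adjusted p = 0.857). The Model libraries spanned a wider range that held every IsoL value. Sdhb, the iron-sulfur subunit, averaged 84.6 ± 4.20 CPM in IsoL and 81.2 ± 3.77 CPM in Model, and Sdhc, a membrane anchor that holds heme, averaged 101 ± 4.73 CPM in IsoL and 101 ± 9.62 CPM in Model (SD, n = 4 each). Sdhd, the other anchor, had 73.6, 72.9, 69.7 and 72.0 CPM in IsoL and 72.7, 95.7, 73.5 and 68.6 CPM in Model, and only Model 2 stood apart. Its log2 fold change was -0.11, and 0.01 without Model 2. All 4 genes lay within 1.25-fold.

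Complex III held a gene with non-overlapping libraries in each direction, although neither passed the test. Such genes made up 8.48% of all genes tested and 3.19% of the 94 members. Uqcrc2, a core subunit facing the matrix (chromosome 7, 120234399 to 120258747 in the deposited table), had 153, 155, 151 and 147 CPM in IsoL libraries and 146, 116, 136 and 143 CPM in Model libraries. The IsoL libraries were all higher, by less than 1 CPM at the nearest pair, and Model 2 was the lowest of the 8. The log2 fold change was 0.17 (SE 0.06, edgeR adjusted p = 0.288). Without Model 2 it was 0.10. Uqcr10, a small membrane subunit (chromosome 11, 4651973 to 4654342), had 36.9, 36.8, 36.2 and 36.2 CPM in IsoL and 42.2, 44.5, 38.3 and 38.6 CPM in Model, and the log2 fold change was -0.16 (SE 0.06; edgeR adjusted p = 0.298). Model 2 was the highest library for this gene, so the same library lay at opposite ends for the 2 genes. Uqcrh, the hinge protein that contacts cytochrome c1 and the gene with the highest FPKM of the complex (87.6), averaged 108 ± 4.03 CPM in IsoL and 109 ± 3.44 CPM in Model (SD, n = 4 each). mt-Cytb had a fitted log2 change of -0.05 (edgeR adjusted p = 0.797). Without Model 2 it turned to 0.03.

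Complex IV has tissue isoforms encoded by paired genes, and the brain libraries held mainly the common ones. On the FPKM scale, averaged over all libraries, Cox4i1 stood at 120 against 1.46 for Cox4i2, Cox6a1 at 176 against 4.70 for Cox6a2, Cox6b1 at 155 against 1.58 for Cox6b2, and Cox7a2 at 91.4 against 1.71 for Cox7a1. Cox6a2 and Cox7a1 are the heart and muscle forms and Cox6b2 is the testis form. Cox8a stood at 182 FPKM, the highest of the nuclear complex IV genes, whereas Cox8b, the muscle form, was at 0.136 and Cox8c was at 0 counts in every library. Ndufa4, first assigned to complex I and now counted with complex IV, stood at 84.1 FPKM against 2.68 for Ndufa4l2.

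Cox6b2 and Cox7a1, both of low level, had the smallest p in each direction among the nuclear complex IV genes. Cox6b2 had 2.15, 2.09, 2.66 and 1.6 CPM in IsoL and 1.33, 1.5, 0.835 and 1.83 CPM in Model, and the log2 fold change was 0.61 (SE 0.27; edgeR adjusted p = 0.355). Cox7a1 had 0.614, 1.04, 0.380 and 0.642 CPM in IsoL and 0.979, 1.13, 0.835 and 1.70 CPM in Model, and the log2 fold change was -0.78 (SE 0.36; edgeR adjusted p = 0.369). For both, the groups overlapped. The common forms had small fitted changes: log2 fold changes were -0.05 for Cox4i1, -0.08 for Cox6a1, 0.02 for Cox6b1, -0.06 for Cox7a2, -0.09 for Cox8a and 0.01 for Ndufa4, with edgeR adjusted p from 0.679 to 0.963. That of Cox8a turned to 0.02 without Model 2. Of the mitochondrial core subunits, mt-Co1 averaged 20191 ± 448 CPM in IsoL and 19752 ± 974 CPM in Model (SD, n = 4 each; log2 fold change 0.03, SE 0.05). mt-Co2 and mt-Co3, both with a whole copy on chromosome 1, had log2 fold changes of -0.25 (SE 0.13, edgeR adjusted p = 0.444) and -0.19 (SE 0.15, edgeR adjusted p = 0.624). Without Model 2 these were -0.15 and -0.06, and without IsoL 4 they were -0.17 and -0.10.

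Atp5a1 and Atp5b, which encode the alpha and beta subunits of the catalytic head of ATP synthase, stood at 241 and 231 FPKM, above the other nuclear members. The median of the 18 ATP synthase genes, which include a second Atp5o entry with 0 counts, was 27.3 FPKM, against 41.9 FPKM for the nuclear complex IV genes. FPKM depends on the deposited gene lengths. In CPM, which does not, the medians of the tested genes were alike, at 87.9 for ATP synthase and 86.6 for nuclear complex IV. Atp5b had 994, 1028, 966 and 967 CPM in IsoL and 1020, 909, 957 and 1008 CPM in Model, and Atp5a1 had 751, 775, 766 and 746 CPM in IsoL and 794, 720, 732 and 757 CPM in Model. The groups overlapped for both, and the log2 fold changes were 0.02 for each (edgeR adjusted p = 0.875 for Atp5b and 0.906 for Atp5a1), falling just below 0 for both without Model 2. In all, 13 of 17 tested genes had fitted changes above 0, with a median of 0.03, and 13 lay within 1.25-fold.

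The membrane ring of ATP synthase is made of subunit c, whose identical mature protein comes from 3 genes. Atp5g3 averaged 159 ± 8.0 CPM in IsoL and 156 ± 10.1 CPM in Model, Atp5g2 averaged 39.8 ± 1.68 CPM in IsoL and 38.2 ± 3.86 CPM in Model, and Atp5g1 averaged 60.7 ± 2.31 CPM in IsoL and 69.7 ± 12 CPM in Model (SD, n = 4 each). Stretches of at least 98% identity with other annotated genes cover 100% of the Atp5g2 transcript and 69.0% of that of Atp5g1, against 0% for Atp5g3. The levels of the 3 genes may therefore not be comparable. Atp5g1 had the smallest p among ATP synthase genes below 0 (log2 fold change -0.20, SE 0.10, edgeR adjusted p = 0.440): its IsoL libraries had 62.0, 60.3, 62.8 and 57.6 CPM and its Model libraries 62.8, 57.5, 84.4 and 74.0 CPM. The 2 high values belonged to Model 3 and Model 4, and Model 1 and Model 2 lay within the IsoL range or at its edge. Atp5mpl, a small subunit of the membrane part, had the smallest p above 0 (log2 fold change 0.13, SE 0.09, edgeR adjusted p = 0.553). Its value was 0.23 without Model 2 and 0.07 without Model 3, and that of Atp5g1 was -0.09 without Model 3. mt-Atp6, the subunit that forms the proton channel with the ring, had 60.8, 63.6, 63.6 and 44.1 CPM in IsoL and 61.1, 87.7, 57.3 and 59.6 CPM in Model, so IsoL 4 was low and Model 2 high. Its log2 fold change was -0.20 (SE 0.17, edgeR adjusted p = 0.667), -0.04 without Model 2 and -0.09 without IsoL 4.

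The balance of the genomes was compared through the share of all counts. Nuclear members took 0.753, 0.765, 0.742 and 0.744% of counts in IsoL libraries and 0.761, 0.759, 0.726 and 0.735% in Model libraries. Mitochondrial members took 5.08, 5.11, 4.97 and 4.88% in IsoL and 4.97, 5.64, 4.71 and 4.69% in Model. The groups overlapped for both shares. The log2 ratio of mitochondrial to nuclear counts was 2.75, 2.74, 2.74 and 2.71 in IsoL and 2.71, 2.89, 2.70 and 2.67 in Model. As a linear ratio it averaged 6.67 ± 0.0786 in IsoL and 6.70 ± 0.483 in Model (SD, n = 4 each), and 6.47 in the Model libraries other than Model 2.

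**Figure D3:**
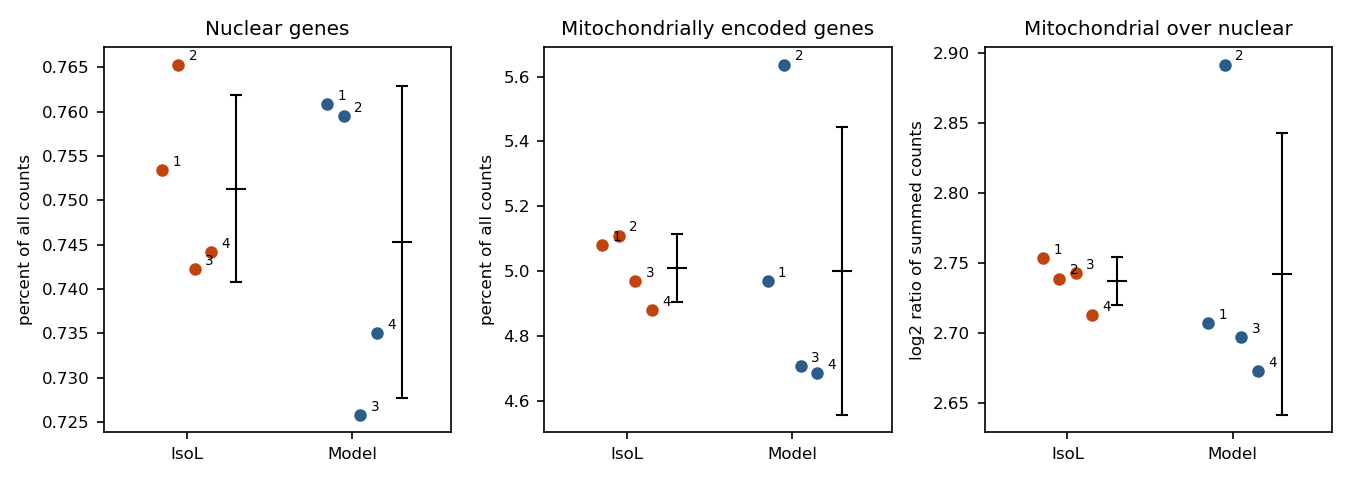
Share of all counts taken by nuclear members and by mitochondrially encoded members, and the log2 ratio of their sums, in each library (numbers are replicate numbers; bars are mean and SD of 4 libraries; axes do not start at 0). Model 2 has the highest mitochondrial share and ratio, and the other 7 libraries lie between 2.67 and 2.75 on the ratio axis.

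Model 2 stood apart from the other Model libraries. It was the highest of the 8 libraries for 10 of 12 mitochondrial genes and for 34 of 82 nuclear genes (41.5%), and the lowest for 12 nuclear genes (14.6%), whereas over all genes tested it was the highest for 23.5% and the lowest for 22.6%. The nuclear pattern followed coding length, at a split of 600 bases chosen after the values were seen. Of 61 nuclear members with a shorter coding sequence, Model 2 was highest for 30 and lowest for 5, and of 20 longer ones it was highest for 3 and lowest for 7. Spearman's rho between coding length and the deviation of Model 2 was -0.285 over 81 nuclear members and -0.340 over 14482 genes, which share the library and are not independent. Over the same members rho was -0.322 in IsoL 4 and -0.087 to 0.223 in the other libraries, so the members alone do not set Model 2 apart. Over all genes rho was 0.192 in Model 3, 0.247 in Model 4 and -0.026 to 0.059 in the remaining 5 libraries. mt-Nd5, with the longest coding sequence of the mitochondrial genes, was not raised in Model 2. In counts of all genes, chi-square per degree of freedom was 11.4 to 15.9 for pairs with Model 2 and 2.58 to 10.1 for other pairs. The part of fragment length or RNA quality in this library was not tested.

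**Figure D4:**
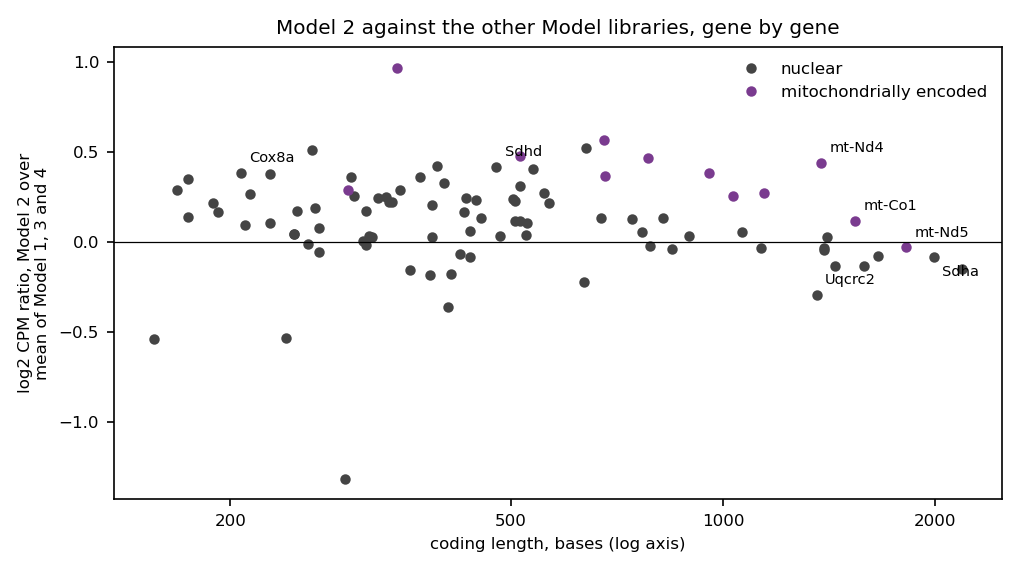
Log2 ratio of CPM in Model 2 to the mean of Model 1, 3 and 4 for each tested gene, against coding length in bases (log axis), nuclear genes in grey and mitochondrially encoded genes in purple. Short nuclear genes lie mostly above 0, the longest lie at or below 0, and mitochondrial genes other than mt-Nd5 lie above 0.

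A pair of genes, named after their values were seen, varied far more between libraries than most genes of like level. Cox7b, a small complex IV subunit on the X chromosome, had 216, 159, 105 and 154 CPM in IsoL and 213, 106, 103 and 146 CPM in Model. Its biological coefficient of variation of 30.8% exceeded that of 99.8% of the 1435 genes of like level, yet the order of replicate numbers was nearly alike in the groups and the log2 fold change was 0.16 (SE 0.32, edgeR adjusted p = 0.873). Single libraries moved that value: it was -0.02 without IsoL 1, 0.31 without IsoL 3, 0.42 without Model 1, and 0.04 without Model 2 or Model 3. Magt1, which encodes a membrane protein tied to magnesium transport and lies 3794 bases from Cox7b in the deposited table, had 86.4, 63.9, 52.0 and 70.8 CPM in IsoL and 79.7, 57.5, 50.4 and 65.2 CPM in Model, nearly the same order of libraries. Atrx and Atp7a, farther out on either side, did not show it: Atrx, a chromatin remodeller, ran from 255 to 272 CPM in IsoL and from 245 to 274 CPM in Model.

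Atp5e, the epsilon subunit of the ATP synthase stalk, had 28.2, 15.6, 10.4 and 25.5 CPM in IsoL and 29.0, 21.5, 30.7 and 33.9 CPM in Model. The IsoL libraries spread over a wider range than the Model libraries, and the log2 fold change was -0.52 (SE 0.32, edgeR adjusted p = 0.552), or -0.31 without IsoL 3. Its coefficient of variation was 31.6%, above 99% of 2528 genes of like level. Prelid3b, the nearest of the 4 neighbours compared, lies 962 bases away and had a coefficient of 8.52%, with 48.6, 44.4, 42.0 and 41.5 CPM in IsoL and 44.6, 58.2, 50.8 and 45.4 CPM in Model.

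**Figure D5:**
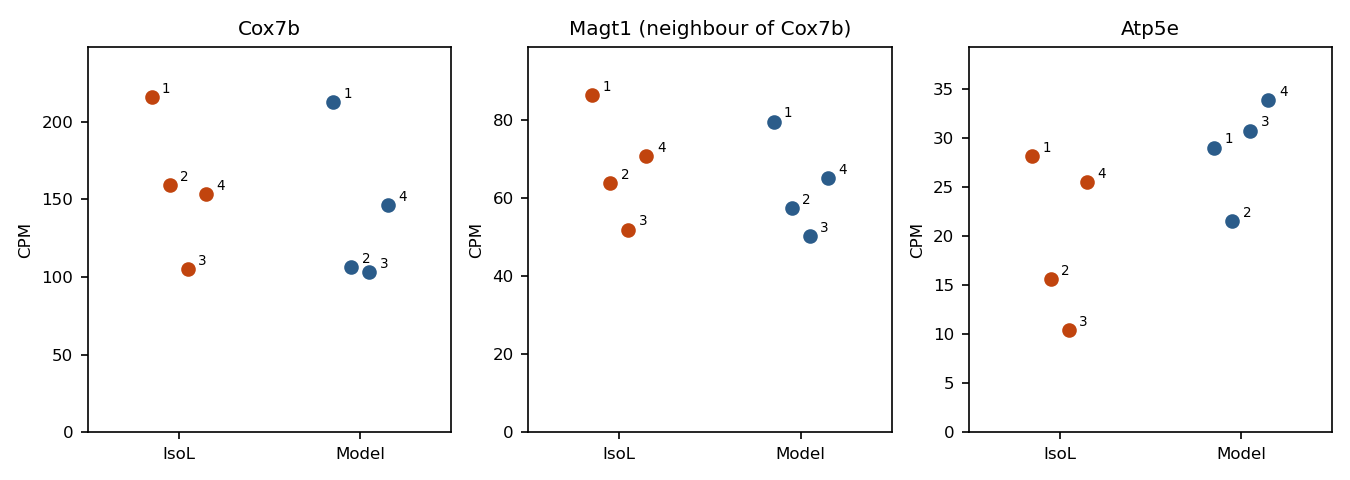
CPM of Cox7b, its neighbour Magt1 and Atp5e in each library (numbers are replicate numbers; axes start at 0). Cox7b and Magt1 are highest in replicate 1 and lowest in replicate 3 of both groups, and Atp5e is lowest in IsoL 3.

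Counts of other members have limits that come from copies and overlaps. Of 86 nuclear members with a transcript in GENCODE M21, 28 share a stretch of at least 98% identity with another annotated gene, and for 11 such stretches cover at least 50% of the transcript, so their counts may be split or lost. Atp5o, the peripheral stalk subunit that confers oligomycin sensitivity, was at 1.2 FPKM, against 13.9 to 241 FPKM for the genes of the catalytic head and central stalk (Atp5a1, Atp5b, Atp5c1, Atp5d and Atp5e). It overlaps a second entry of the same name on the same strand by 1769 bases, and that entry had 0 counts in every library. Spans also overlap other genes on the same strand for Ndufa13 (8379 of 8379 bases), Ndufb8 (4260 of 6869), Ndufb9 (3604 of 5733) and Ndufb2 (4022 of 10809). The span of Cox6a2 lies wholly within that of Itgad on the other strand, and no strand marking is stated. The part of these overlaps in the counts was not tested. FPKM also rests on the deposited gene length: that of Atp5g1 is 4912 bases, whereas its GENCODE transcript has 596.

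Promoters of nuclear members are known for sites of NRF1, of the ETS factor GABP (also called NRF2) and of YY1, which tie their expression together. RefSeq windows of 250 bases before to 50 after the start (GRCm38.p6) were found for 70 members, 75 windows in all, and were searched on both strands. The NRF1 core GCGCATG was in 13 windows (17.3%, against 3.91% of 32851 windows of all genes), the ETS core CCGGAAG in 17 (22.7%, against 8.86%) and the YY1 core AAGATGG in 11 (14.7%, against 6.34%), while TATAAA was in 9 (12%, against 13.6%). The member windows had a median GC content of 57.3% against 52.7%. Any of the NRF1, ETS and YY1 cores was in 33 of the 75 windows (44.0%, against 17.5%), so most member windows held none. The windows of Cox6a1 (chr5:115348909-115349208, minus strand) and Sdhb (chr4:140961021-140961320, plus strand) are shown as examples that hold both the NRF1 and the ETS core, in capitals. Other members, such as Uqcr11, hold both as well. In Cox6a1, matches of the NRF1 core on the opposite strands overlap.
Cox6a1: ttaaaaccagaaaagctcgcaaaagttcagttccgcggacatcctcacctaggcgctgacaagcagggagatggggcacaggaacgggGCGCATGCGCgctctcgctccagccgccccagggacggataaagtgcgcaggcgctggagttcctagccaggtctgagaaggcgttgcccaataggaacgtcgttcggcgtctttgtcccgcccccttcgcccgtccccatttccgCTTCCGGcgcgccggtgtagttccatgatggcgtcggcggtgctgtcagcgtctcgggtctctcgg
Sdhb: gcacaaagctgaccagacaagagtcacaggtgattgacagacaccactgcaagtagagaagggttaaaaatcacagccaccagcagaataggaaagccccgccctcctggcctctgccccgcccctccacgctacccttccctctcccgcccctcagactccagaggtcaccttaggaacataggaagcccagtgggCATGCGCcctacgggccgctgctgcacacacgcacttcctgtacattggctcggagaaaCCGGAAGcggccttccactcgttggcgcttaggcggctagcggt

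None of the genes that build or regulate these complexes passed edgeR's test either. At an unadjusted p under 0.05 there were 3 of 6 complex III assembly factors (50%), 3 of 16 glycolytic genes (18.8%), 3 of 18 genes of pyruvate entry and the tricarboxylic acid cycle (16.7%), 3 of 19 genes for mitochondrial DNA and RNA (15.8%), 1 of 9 regulators (11.1%) and 1 of 17 complex I assembly factors (5.88%), against 13.2% of all genes. There were 0 among the assembly factors of complexes II (3 genes), IV (19) and V (5) and the 4 structural genes outside the name rule. Among 9 regulators of nuclear respiratory genes, 4 had fitted changes above 0 and 5 below, and Gabpa, the DNA-binding subunit of GABP, had the smallest p (log2 fold change -0.14, edgeR adjusted p = 0.367). Gabpa overlaps Atp5j by 701 bases on the other strand. Of 19 tested genes for mitochondrial DNA maintenance and RNA handling, 12 were above 0, with a median log2 fold change of 0.05, and Polg, the mitochondrial DNA polymerase, had the smallest p (0.16, edgeR adjusted p = 0.321). Assembly factors were tested for complex I (17 genes, median -0.04), complex II (3, median -0.05), complex IV (19, median -0.03) and complex V (5, median -0.09), none of which held a gene called by edgeR. The 4 structural genes outside the name rule, Ndufab1, Cyc1, Cycs and Atpif1, had log2 fold changes from -0.03 to 0.26.

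Complex III assembly held the smallest p of these lists. Lyrm7, which helps insert the Rieske iron-sulfur protein, had 13.7, 10.9, 11.4 and 13.4 CPM in IsoL and 9.30, 8.01, 5.01 and 6.18 CPM in Model. All IsoL libraries were higher, and the log2 fold change was 0.79 (SE 0.17), but it missed the threshold (edgeR adjusted p = 0.0691). The other 5 genes of this list had fitted changes below 0. Ttc19, which clears fragments of the Rieske protein, had 114, 118, 107 and 101 CPM in IsoL and 135, 131, 120 and 121 CPM in Model (log2 fold change -0.20, edgeR adjusted p = 0.155), and Uqcc2, needed to make cytochrome b, had a log2 fold change of -0.32 (edgeR adjusted p = 0.165). Ttc19 and Uqcc2 were named after their values were seen.

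The pathways that feed the chain were also without a gene called by edgeR. Fewer genes in all were called by edgeR (0.275%) than by DESeq2 (2.14%) or limma voom (1.64%), whose calls for these lists are not given. The 18 genes of pyruvate entry and the tricarboxylic acid cycle had a median log2 fold change of 0.01, and all 18 intervals lay within 1.25-fold. Among 16 glycolytic genes, 10 were above 0, and 15 lay within 1.25-fold. Pkm, pyruvate kinase, had 796, 776, 773 and 764 CPM in IsoL and 706, 694, 629 and 670 CPM in Model, and the log2 fold change was 0.20 (SE 0.05; edgeR adjusted p = 0.0864). Its groups did not overlap, but it did not pass the threshold.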

How the data were processed

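Per the file headers, the deposited table gives read counts, FPKM and a length for each gene. The submitters' processing notes name fastp 0.22.0, HISAT2 2.1.0 and HTSeq 0.9.1. Genome build and annotation are unstated in those notes. Deposited FPKM values were checked against the counts, the deposited length and summed counts (largest relative difference 1.11e-09). All tests used counts: filterByExpr, TMM scaling, and the robust quasi-likelihood F-test of edgeR 4.0.16 (R 4.3.3) with Benjamini-Hochberg adjustment over all 14536 genes at 0.05. CPM are TMM-scaled. SDs are over 4 libraries, and 95% intervals use the fit's SE. Alternatives were DESeq2 size factors, scaling on nuclear genes, no filter, a replicate block, each library left out, DESeq2 1.42.0 and limma 3.58.1 voom with quality weights, other sums, and an adjusted p of 0.10. A comparison without mitochondrial genes that have a copy was added after seeing the data. The fits were tested on simulated data. Copies were searched with blastn 2.17.0 among GENCODE M21 transcripts at 98% identity over 100 bases, and 99 of 100 members were matched.

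The members, gene lists and tests were chosen with earlier results of these data known. Named were every mitochondrial gene, all complex II genes, in each nuclear group the smallest p in each direction and the highest FPKM, isoform pairs, the subunit c genes and the smallest p of each pathway list. A gene that this rule names is not reported here. Floors and counts cover counting error only.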

Additional observations from a re-analysis of the deposited data

Results flagged for a closer look

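A sample far from the other 3 of its group was found in 9 of 88 group comparisons. Chance would flag about 5% of independent comparisons. These share the same libraries and are not independent, so no excess can be read from the count. Model 2 stood apart for Cox8a (141 CPM, others 104 to 111), mt-Atp6 (87.7 CPM, others 57.3 to 61.1), mt-Nd6 (941 CPM, others 646 to 696) and the log2 ratio of mitochondrial to nuclear counts (2.89, others 2.67 to 2.71). IsoL 4 was low for mt-Atp6 (44.1 CPM, others 60.8 to 63.6) and mt-Co2 (112 CPM, others 142 to 148). IsoL 2 was high for Cox6b1 (114 CPM, others 109.7 to 109.9) and Sdhc (108 CPM, others 98 to 99.6). Model 1 was high for mt-Nd5 (4837 CPM, others 4473 to 4511).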

How the results depend on the processing

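No nuclear or mitochondrial member passed an adjusted p of 0.05 in any of the 14 alternative fits, and at an adjusted p of 0.10 mt-Nd5 passed in DESeq2 and limma voom only. The other summary values moved by less than the spread between libraries, and 574 comparisons of 41 named genes kept their side of the threshold. The count of all genes called moved from 40 to 74 with no filter on low counts, 311 with DESeq2, 238 with limma voom and 138 at an adjusted p of 0.10. Leaving out each library gave 6 to 146 (146 without Model 2, 6 without IsoL 2 or Model 4, 8 without IsoL 1, 9 without IsoL 4, 13 without Model 1, 16 without IsoL 3 and 21 without Model 3); the cause was not tested. The mitochondrial median log2 fold change then ran from -0.13 to 0.037 and the nuclear one from -0.026 to 0.018. Signs changed for 21 of 94 members without Model 2, for 17 in limma voom and for 4 to 8 without each other library. Replicate numbers did not pair the libraries (correlations of same-numbered deviations 0.026, 0.020, 0.070 and 0.063), and a replicate block gave 17 genes called in all and no member. Without the 5 mitochondrial genes that have a whole copy, the mitochondrial median was -0.022.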

Other observations

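Within the mitochondrial counts, the share of 2 of 13 genes did not overlap between groups, and they were named after these values were seen. On the CPM scale the groups overlapped for all 12 tested mitochondrial genes, where 8.48% of all genes tested did not overlap. A background for shares within the mitochondrial counts was not computed. mt-Nd5 took 9.75, 9.64, 9.99 and 10.0% in IsoL libraries and 9.56, 8.05, 9.63 and 9.51% in Model libraries. mt-Cytb took 15.8, 16.1, 16.1 and 16.2% in IsoL libraries and 16.5, 17.0, 16.3 and 16.4% in Model libraries. The nearest libraries lay close together for both, and shares of one total are not independent of each other.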
